A study of Mus musculus with 2 samples.

Results

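The genes described here are 57 mouse genes of autophagy and the lysosome, and the question is which of them carried a called peak of histone H3 β-hydroxybutyrylated at lysine 9 (H3K9bhb) in CD8+ memory T cells. A gene was taken to have a peak when a summit of the deposited peak list lay inside it or within 5 kb of it; 10 of the 57 did, among 2489 of 21900 protein-coding genes (11.4%) in all. The genes were listed by name, not chosen by their peaks, and the list was drawn up with earlier results of these data known.

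The series holds 2 libraries, 1 H3K9bhb chromatin immunoprecipitation (ChIP) and 1 input, each given as 70 M reads. Both came from spleen cells of C57BL/6 OT-I mice, whose T cells share a transgenic receptor for an ovalbumin peptide. The cells were stimulated with that peptide (200 ng/ml) and interleukin-2 (10 ng/ml) for 3 days, kept in interleukin-15 (10 ng/ml) for a further 4 days to form memory cells, and given β-hydroxybutyrate for 3 days. The input shares strain, culture and treatment with the ChIP library and lacks only the antibody (4 µg in the ChIP); its signal was not analysed here. Neither an untreated culture nor another ChIP library was analysed here. A peak therefore says where the mark was called in treated cells, not that treatment placed it there. The labels do not say how many animals gave the culture.

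The peak list held 2315 summits in 2204 peaks. Each summit has a score, the −log10 of the p or q value of the peak caller; over the peaks the median was 5.04, with quartiles of 3.33 and 6.78. A call is not proof of the mark: the mitochondrial genome, which has no histones, held 9 peaks. None of 7 marker genes of CD8+ T cells (such as Cd8a and Cd3e) had a peak. Neither did any (0) of 19 markers of B, myeloid, CD4 T and NK cells, so the peaks did not speak to the identity of the cells. With 11.4% of all protein-coding genes called, lists this short cannot show a lack of peaks.

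Autophagy encloses part of the cytoplasm in a double membrane and delivers it to lysosomes for breakdown. The ULK kinase complex starts the process, a phosphatidylinositol 3-kinase (PI3K) complex marks the site with the lipid PI3P, and a pair of ubiquitin-like conjugation systems attaches ATG8 proteins such as LC3 to the growing membrane, where receptors dock cargo. Lysosomal hydrolases then digest the cargo. The lysosome surface is also where the Ragulator complex and the Rag GTPases anchor the growth kinase mTORC1, which restrains both ULK1 and TFEB, the main transcription factor of lysosomal genes. In CD8+ T cells, autophagy is known to be needed for the survival of memory cells.

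Of the 57 genes, 17.5% had a peak (95% exact interval 8.75 to 29.9), and of all protein-coding genes 11.4% did. The interval covers counting error only, and includes the share of all genes. Longer genes were more often called: the share over all genes was 5.68% for genes under 10 kb, 11.8% from 10 to 30 kb, 17.2% from 30 to 100 kb and 16.6% over 100 kb. The 57 genes had 1 of 14, 3 of 21, 6 of 16 and 0 of 6 with a peak in these classes. At the shares of all genes of like length, 7.02 of the 57 would have a peak, and at the share of all genes 6.48 would. The genes called were Ulk2, Rb1cc1, Atg2a, Wipi2, Optn, Tfeb, Psap, Npc1, Lamtor2 and Rragc, and their 11 peaks held 13 summits. With other ways of tying summits to genes, the share of the 57 was above that of all genes each time, a difference that 1 library does not allow to be tested. These ways reuse the same summits and called no member outside the 10, so they are not separate observations. Their shares were not adjusted for gene length. The count was 8 of 57 when the summit had to lie inside the gene (8.71% of all genes), 10 within 10 kb (13.0%), 10 within 2 kb of a gene end (9.4%), 8 of the 48 with a listed transcription start within 2 kb of it (9.58% of all genes with one), and 9 when each peak counted once, for the gene end nearest to it (9.62%). Among the higher-scoring 50% of peaks it was 6 (5.77%).

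The called genes were spread over the pathway, with 15 of the 57 genes, the conjugation machinery, free of peaks. By role, a peak was found at 2 of 5 genes of the initiation kinase complex, 0 of 5 of the class III PI3K complex, 2 of 5 of membrane supply and PI3P binding, 0 of 15 of conjugation, 1 of 3 receptors, 1 of 3 transcription factors, 1 of 8 lysosomal enzymes with their activator, 1 of 5 lysosomal membrane and lipid transport genes and 2 of 8 genes of mTOR anchoring. For 0 of 15, the limit set by 3 counts is 20% and the exact upper limit is 21.8%, so it lies within reach of the 11.4% of all genes. The exact interval of every role included 11.4%, and no difference between roles can be read from counts this small.

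**Figure D1:**
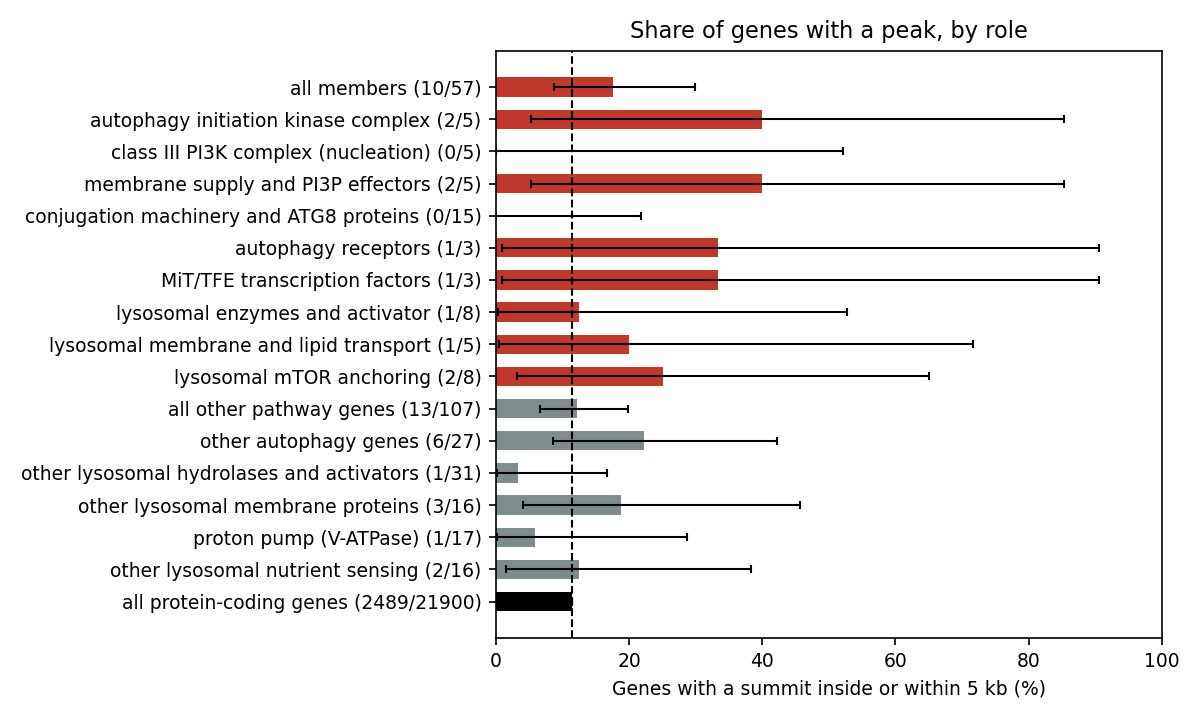
Share of genes with a summit inside or within 5 kb (x axis, percent) for the 57 genes and their 9 roles (red), 5 lists of other genes of the pathway and their sum (grey), and all protein-coding genes (black, also the dashed line at 11.4%). Whiskers are exact 95% intervals, and each of them crosses the dashed line.

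The initiation kinase complex was called at one of its kinases and at its scaffold. Ulk2, a kinase that shares the task of starting autophagy with Ulk1, had 1 summit on chromosome 11 at 61854934, 158 bp downstream of its annotated transcription start, with a score of 4.93. Rb1cc1, which encodes FIP200, the large scaffold of the complex, had 1 summit on chromosome 1 at 6214845, within the gene, 211 bp past the end with the lower coordinate, with a score of 3.17. The table of starts did not list Rb1cc1, so which end is its start was not taken from it. Its score was shared by 18 peaks and reached or passed by 81.2% of all peaks. Ulk1 was 69.9 kb from the nearest summit, at an end of Ttc28. The adaptors Atg13 and Atg101 were 265 and 522 kb away.

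None (0) of the 5 genes of the class III PI3K complex had a peak. Becn1, the regulatory subunit Beclin 1, was the closest of all members without one: a summit lay 14.1 kb from it, on chromosome 11 at 101316351, and 138 bp from an end of Psme3. Uvrag, a subunit tied to endosomal maturation, was 51.5 kb from a summit at Wnt11, and Atg14, which targets the complex to the endoplasmic reticulum, was 81.4 kb from one at Ktn1. The scaffold Pik3r4 was 515 kb away, and the catalytic subunit Pik3c3 was 1815 kb away, the farthest of the 57.

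Among the genes that supply membrane, 1 of each related pair had a peak. Atg2a, a lipid transfer protein that feeds the growing membrane, had a summit on chromosome 19 at 6241757, 89 bp downstream of its start, with a score of 5.04; its relative Atg2b was 99.5 kb from a summit. Wipi2, which binds PI3P and recruits the conjugation machinery, had a summit on chromosome 5 at 142629505, 79 bp upstream of its start. Its score of 8.07 was reached by 13.7% of all peaks. Wipi1, a relative that also binds PI3P, was 652 kb from a summit. Atg9a, a scramblase carried on small vesicles, was 314 kb from one.

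The 15 conjugation genes and ATG8 genes were a median of 354 kb from the nearest summit, with a range of 14.3 to 1170 kb. The median was 145 kb over the 57 genes and 222 kb over all protein-coding genes, but these sets include genes with a peak. Among genes without a peak, the like set for these 15, it was 265 kb over the 47 members and 289 kb over all protein-coding genes. Atg4b, a protease that trims ATG8 proteins, was the closest, 14.3 kb from a summit that lay 54 bp from an end of Ing5 and scored 2.08. Gabarap and Gabarapl2 of the ATG8 family were 55.2 and 64.1 kb away. The E1-like enzyme Atg7 was 109 kb away, and Atg5, which forms a conjugate with the product of Atg12, was 265 kb from a summit. Map1lc3b, which encodes the LC3 protein used as a marker of autophagosomes, was 474 kb from one.

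**Figure D2:**
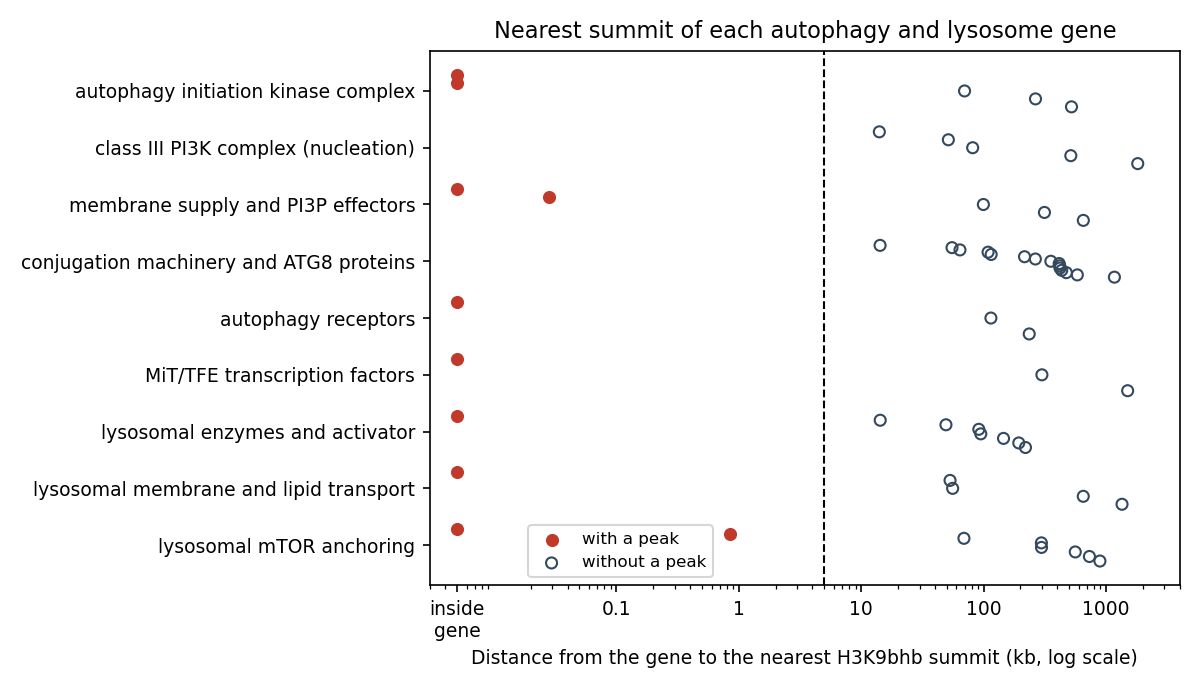
Distance from each of the 57 genes to the nearest H3K9bhb summit (x axis, kb on a log scale; genes that contain a summit stand at the left edge), by role. Filled points are the 10 genes with a peak, open points the 47 without, and the dashed line is the 5 kb limit; no gene lies between 0.85 kb and 14.1 kb.

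Of the receptors, which link ubiquitylated cargo to ATG8 proteins, Optn had a peak. This gene encodes optineurin, and its summit lay on chromosome 2 at 5063945, 172 bp downstream of the start. The score of 2.51 was the lowest among the 57 genes, was shared by 106 peaks and was reached or passed by 90.7% of all peaks. Sqstm1, which encodes the receptor p62, and Nbr1, a receptor of like build, were 115 and 236 kb from a summit.

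Of the related transcription factors Tfeb, Tfe3 and Mitf, Tfeb had a peak. Its summit, on chromosome 17 at 47737520, scored 6.93, a value that 23.0% of all peaks reached or passed. Tfeb has 3 annotated starts, and the summit lay between the first of them, 483 bp downstream of it, and the second, 411 bp upstream of it; the third lay 48224 bp downstream of the summit. Mitf, a gene of 214 kb also with 3 starts, was 1501 kb from the nearest summit. Tfe3 was 299 kb from one. Tfe3, Lamp2 and Atg4a are the 3 genes of the list on the X chromosome, where 1.86% of genes had a peak, against 11.9% of autosomal genes.

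Of the lysosomal enzymes and their activator, Psap had peaks at both ends. Psap encodes prosaposin, which is cut into the saposins that present sphingolipids to lysosomal hydrolases. A summit with a score of 4.54 lay on chromosome 10 at 60277862, 234 bp downstream of the first annotated start; 56.6% of all peaks reached or passed this score. The second peak had 3 summits, at 60301864, 60302113 and 60302431, which scored 9.50, 10.7 and 43.4 and lay 736, 487 and 169 bp before the annotated transcript end. The score of 43.4 ranked 12th of the 2204 peaks, mitochondrial ones included, and 8 nuclear peaks scored higher. The transcript end of Cdh23, a cadherin gene on the opposite strand, lay 317 bp beyond the last summit, so the genes converge there. The 7 hydrolase genes Ctsa, Ctsb, Ctsd, Ctsl, Hexa, Gaa and Lipa had no peak. Gaa, the glucosidase that digests glycogen in lysosomes, was 14.3 kb from a summit at Eif4a3, and Ctsl, the protease cathepsin L, was 49.2 kb from one at Prxl2c; the other 5 were 91.4 to 220 kb away.

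Peaks at a listed transcript end and away from starts were few in the list. Transcript ends of genes with no listed start were not used, and peaks near a start were left out. Peaks at transcript ends of all kinds may therefore be more common. Of 2139 nuclear peaks on chromosomes with listed starts, 29 (1.36%) lay within 1 kb of a transcript end and over 2 kb from every listed start and from both ends of genes with no listed start. Their median score was 3.50. That of Psap was the highest of them, followed by Agap2 with 25.5 and Vdac1 with 17.1, which were named after their values were seen. Whether sequence copies elsewhere in the genome add reads at this place was not tested.

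**Figure D3:**
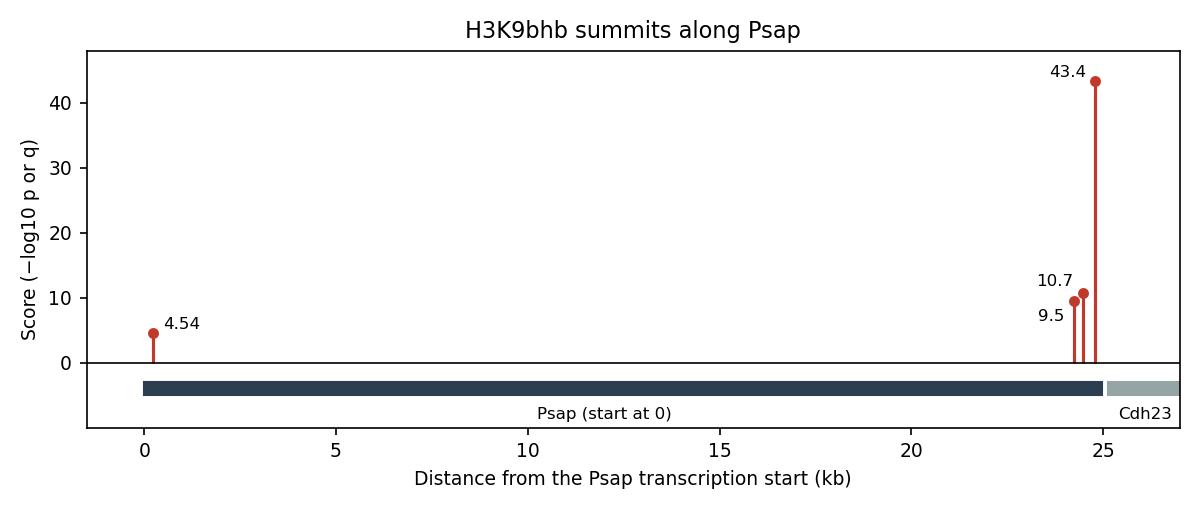
The 4 summits at Psap by distance from its first annotated start (x axis, kb) and score (y axis, −log10 p or q). The start carries a summit of 4.54 and the last 1 kb of the gene carries 3 summits, the highest at 43.4; the bars below show the span of Psap and the end of Cdh23.

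Among lysosomal membrane and lipid transport genes, Npc1 had a peak. NPC1 is the membrane protein that exports cholesterol from the lysosome. The summit lay on chromosome 18 at 12236265, within the gene, 241 bp before the end with the higher coordinate, and its score of 10.2 was reached by 7.76% of all peaks; the table of starts did not list this gene. Npc2, which encodes the soluble partner that hands cholesterol to NPC1, was 55.8 kb from a summit. Lamp1, an abundant glycoprotein of the lysosomal membrane, was 53.2 kb away, its relative Lamp2 1350 kb and Mcoln1, a calcium channel of the lysosome, 651 kb.

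Of the 8 genes that anchor mTORC1 to the lysosome, Rragc and Lamtor2 were called. Rragc, one of the Rag GTPases, had a summit on chromosome 4 at 123917531, 98 bp downstream of its start, with a score of 6.83 that 23.6% of all peaks reached. Lamtor2, a subunit of Ragulator, did not contain its summit. The summit, on chromosome 3 at 88553801 with a score of 3.29, lay 850 bp upstream of the Lamtor2 start and 85 bp downstream of the listed start of Ubqln4, a neighbour on the opposite strand. Among the 11 peaks it was the 1 case in which another gene's end was nearer to the summit. Rraga, the partner GTPase of the complex, was 297 kb from a summit, and Flcn, which encodes the Rag regulator folliculin, was 296 kb away. The other Ragulator genes, Lamtor1, Lamtor3, Lamtor4 and Lamtor5, were 69.1 to 891 kb away.

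The scores of these peaks ran from 2.51 to 43.4, within a range of 2.01 to 1167 over the list. The 11 peaks had a median score of 5.04, as did all peaks, and 6 of the 11 were at or above the median of the list. Psap at its transcript end, Npc1 and Wipi2 led, and Lamtor2, Rb1cc1 and Optn were lowest. A score rises with the reads at a place, which were not analysed here, so it ranks peaks and does not measure the amount of the mark.

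**Figure D4:**
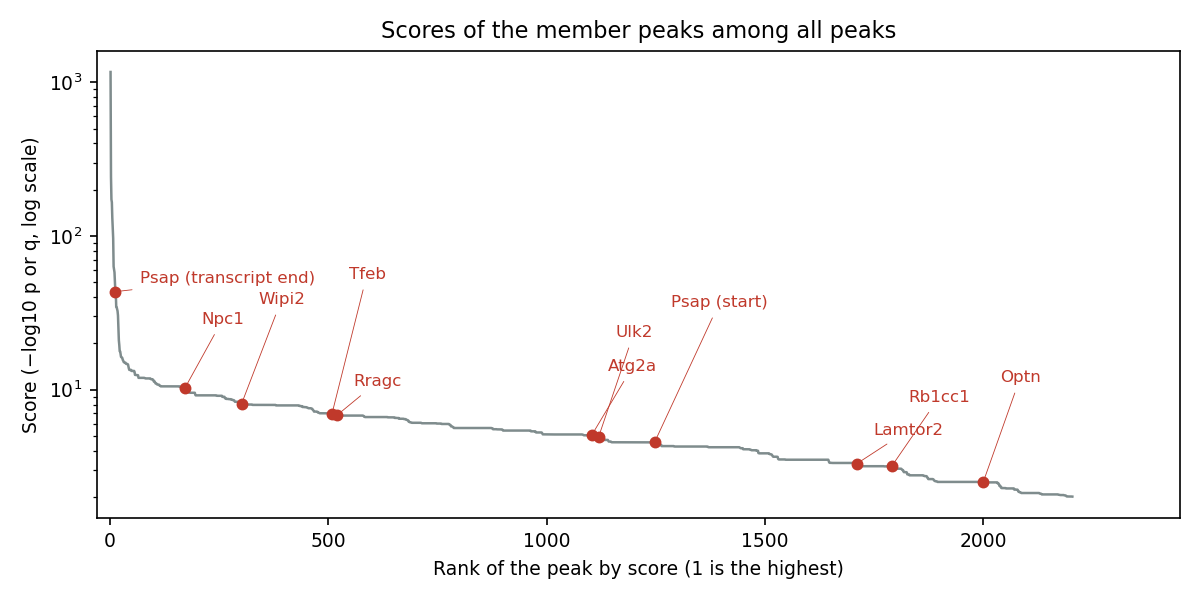
Scores of all 2204 peaks in falling order (grey line; x axis, rank; y axis, −log10 p or q on a log scale) with the 11 peaks of the 10 genes as red points. They run from rank 12 (Psap, transcript end, 43.4) to rank 2000 (Optn, 2.51, counting the peaks that scored as high or higher).

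With a strand for each listed start, the side of the summit could be read. Of the 10 called genes, 8 had a listed start. The summits of Ulk2, Atg2a, Optn, Rragc and Psap lay 89 to 234 bp downstream, that of Wipi2 79 bp upstream, that of Tfeb between its starts, and that of Lamtor2 850 bp upstream. Of the 2139 nuclear peaks on chromosomes with listed starts, 1501 (70.2%) lay within 1 kb of one. Starts were listed for 17492 of 21900 protein-coding genes, so a peak at an unlisted start counted as away from a start. Of the 1501 peaks, 74.0% were downstream. Their median position was 121 bp downstream, with quartiles from 7 bp upstream to 238 bp downstream.

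**Figure D5:**
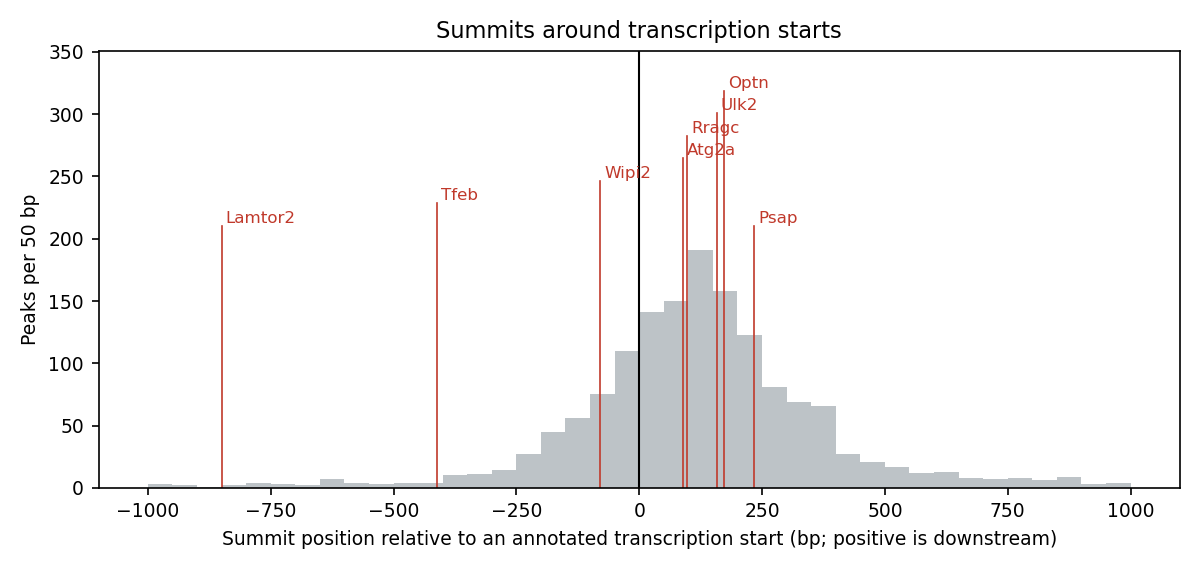
Positions of the 1501 peaks within 1 kb of a listed start, per 50 bp (grey; x axis, bp from the nearest start, positive downstream; y axis, peaks), with red lines for the summits of 8 genes relative to their own nearest start. Of the lines, 5 stand from 89 to 234 bp downstream, within the main hump, and those of Tfeb and Lamtor2 stand outside it.

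Promoters of the 6 genes with a summit within 300 bp of a start are shown because they are the sequences next to the called summits. Each runs from 250 bases before to 50 after the start, 5′ to 3′ on the gene's strand, from RefSeq on GRCm38.p6: Wipi2 chr5:142629334-142629633 (plus strand), Rragc chr4:123917183-123917482 (plus), Atg2a chr19:6241418-6241717 (plus), Ulk2 chr11:61855043-61855342 (minus), Psap chr10:60277378-60277677 (plus) and Optn chr2:5064068-5064367 (minus). Capitals mark, on either strand, the GC box GGGCGG that factors of the Sp family bind, the CCAAT box that NF-Y binds, and the E-box core CACGTG that TFEB and its relatives bind. Only the Wipi2 summit falls inside its window.
Wipi2: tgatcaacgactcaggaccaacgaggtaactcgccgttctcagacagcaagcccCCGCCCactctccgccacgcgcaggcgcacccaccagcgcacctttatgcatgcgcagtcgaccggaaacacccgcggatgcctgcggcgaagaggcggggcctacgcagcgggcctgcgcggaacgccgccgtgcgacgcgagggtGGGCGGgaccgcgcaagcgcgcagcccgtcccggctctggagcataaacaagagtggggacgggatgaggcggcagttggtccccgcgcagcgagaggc
Rragc: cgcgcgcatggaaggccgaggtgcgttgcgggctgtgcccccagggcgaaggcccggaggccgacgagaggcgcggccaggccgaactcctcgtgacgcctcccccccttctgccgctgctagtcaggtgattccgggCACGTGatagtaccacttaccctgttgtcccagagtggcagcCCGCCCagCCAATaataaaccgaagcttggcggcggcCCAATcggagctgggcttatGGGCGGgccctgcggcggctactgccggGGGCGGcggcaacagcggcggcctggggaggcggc
Atg2a: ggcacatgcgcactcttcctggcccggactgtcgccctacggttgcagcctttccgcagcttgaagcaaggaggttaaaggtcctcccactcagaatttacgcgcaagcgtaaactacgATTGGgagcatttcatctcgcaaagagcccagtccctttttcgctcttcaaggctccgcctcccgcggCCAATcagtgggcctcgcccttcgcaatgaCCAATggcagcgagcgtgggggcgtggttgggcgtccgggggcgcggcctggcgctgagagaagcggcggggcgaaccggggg
Ulk2: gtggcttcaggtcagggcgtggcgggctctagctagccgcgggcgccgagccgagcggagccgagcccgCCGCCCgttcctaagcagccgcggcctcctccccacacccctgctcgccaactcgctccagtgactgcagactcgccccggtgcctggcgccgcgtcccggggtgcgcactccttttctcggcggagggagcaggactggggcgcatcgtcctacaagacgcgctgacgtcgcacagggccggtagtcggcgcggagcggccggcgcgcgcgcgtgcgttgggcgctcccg
Psap: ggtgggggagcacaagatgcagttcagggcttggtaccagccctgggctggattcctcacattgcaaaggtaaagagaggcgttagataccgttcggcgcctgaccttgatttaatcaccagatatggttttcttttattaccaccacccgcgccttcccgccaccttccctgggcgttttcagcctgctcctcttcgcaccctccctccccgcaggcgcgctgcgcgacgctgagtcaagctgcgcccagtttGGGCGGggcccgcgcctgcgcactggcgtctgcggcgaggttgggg
Optn: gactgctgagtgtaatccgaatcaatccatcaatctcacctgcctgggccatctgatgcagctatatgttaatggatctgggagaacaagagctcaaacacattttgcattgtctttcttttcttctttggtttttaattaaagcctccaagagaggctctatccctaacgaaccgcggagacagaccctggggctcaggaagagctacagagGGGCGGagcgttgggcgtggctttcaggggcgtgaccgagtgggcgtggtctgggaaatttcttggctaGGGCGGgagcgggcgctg

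These promoters held GC boxes more often than E-boxes, as did all listed promoters of protein-coding genes (46.2% and 7.84%). Wipi2 and Optn had 2 GC boxes each, Rragc had 3, Ulk2 and Psap had 1 and Atg2a had 0. Atg2a had 3 CCAAT boxes and Rragc had 2. Rragc alone of the 6 had the E-box core, 112 bases before its start. The number of CpG dinucleotides in the 300 bases ran from 45 in Ulk2 and 40 in Wipi2 to 23 in Psap and 13 in Optn.

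Over the whole list, 48 of the 57 genes had a listed promoter, 58 promoters in all. The E-box core CACGTG was in 13 of the 58 (22.4%), and in 7.84% of all 21263 listed promoters of protein-coding genes. The E-box core with T before and A after it, the centre of the CLEAR element found at many TFEB targets, was in 4 of the 58 (6.90%) and in 1.23% of all; every CLEAR match is also an E-box match. The 4 were promoters of Ctsa, Ctsd, Mcoln1 and Atg3, and none of these genes had a peak. With 11.4% of all protein-coding genes called, 4 genes are too few for a lack of peaks to be read from this. Of the 11 promoters of called genes 1 had the E-box core, and of the 47 promoters of the other genes 12 did. Over all listed promoters, the E-box core was in 11.8% of those with a summit within 500 bp and 7.50% of those without. The CLEAR form was in 2.37% and 1.14% of them. The counts in the 57 genes ran the other way, and they rest on 11 promoters of called genes. The GC box was in 9 of the 11 and in 24 of the 47, against 80.1% of listed promoters with a summit within 500 bp of the start, 43.4% of those without and 46.2% of all. These sets are not alike. The 11 are all listed promoters of the called genes, and Lamtor2, the later Psap start and the last Tfeb start had no summit within 500 bp. The promoters are not independent: the 11 belong to 8 genes, with 3 from Tfeb and 2 from Psap, and the 47 belong to 40 genes. Each Tfeb promoter held the GC box.

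The median number of CpG dinucleotides per promoter was 22 in the 11 promoters of called genes and 19 in the 47 others. Over all listed promoters it was 28 (quartiles 21 and 35) with a summit within 500 bp and 11 (3 and 23) without. That split is by a summit at the promoter itself, whereas the 11 include promoters of called genes without one. The CCAAT box was in 27.3% and 38.3% of the promoters of called and other genes, against 38.2% of all. The cAMP response element palindrome was in 0 of the 11 and 3 of the 47, the promoters of Mitf, Atg5 and Flcn, and in 2.23% of all. A match describes these letters only and says nothing of what binds there.

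Other genes of the pathway had peaks at 13 of 107 (12.1%, 95% exact interval 6.63 to 19.9), where 13.5 would have one at the shares of genes of like length. Other autophagy genes had 6 of 27. Rubcn, which encodes Rubicon, an inhibitor of the class III PI3K complex, had 2 peaks, 14 bp upstream of its upstream start (score 11.8) and 204 bp downstream of another start (6.63). Nrbf2, a subunit of that complex, had a summit 344 bp downstream of its start (10.5). Stx17 and Snap29, SNARE proteins that fuse autophagosomes with lysosomes, had summits 153 bp downstream (6.78) and 153 bp upstream (9.95) of their starts; the start of Pi4ka lay 18 bp from the Snap29 summit. Bnip3l, a mitophagy receptor, had one 470 bp inside the gene (4.29), and the summit of Plekhm1 (3.85), an adaptor of fusion, was nearer to an end of Arhgap27.

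Of the lysosomal lists, other hydrolases and activators had 1 of 31, the β-galactosidase gene Glb1 (5.12); an end of Tmppe was nearer to its summit. Other lysosomal membrane proteins had 3 of 16: Scarb2, the receptor that carries glucocerebrosidase to lysosomes (6.43), Gnptab, a subunit of the enzyme that makes the mannose 6-phosphate tag (5.98), and Tmem192 (4.22). The proton pump had 1 of 17, its subunit Atp6v0d1 (6.78). The nutrient-sensing genes had 2 of 16: Seh1l, a subunit of GATOR2 (3.33), and Rragd, the paralog of Rragc, with a summit 246 bp downstream of its start and a score of 2.29; Rragd was named after its values were seen. The summit with the score given for Seh1l lay 231 bp from an end of Cep192, and another, inside Seh1l, scored 3.17.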

How the data were processed

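The submitters' processing notes name MACS2 2.1.2 for peaks, Bowtie2 2.3.5 for alignment, Trimmomatic 0.39 for trimming, FastQC 0.11.8 and build mm10; the sources used here do not give settings, use of the input, duplicate removal or blacklists. Reads were paired, 150 bp. The deposited values are −log10 p or q values (which is not stated), 1 per summit, written like a MACS2 summit file, and are the authors' own; no widths or read counts were analysed here, and the depth of each peak is unknown.

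Positions were set against RefSeq genes of GRCm38.p6, the assembly that mm10 denotes; all 57 genes and 107 of 108 other pathway genes matched. Starts and strands came from a RefSeq promoter table that lists 17492 of the 21900 protein-coding genes, including 48 of the 57; gene ends served otherwise. Every summit counted for every gene in reach; scores use the highest summit of each peak. With 1 ChIP library and no replicate there is no test and no p-value; intervals are exact binomial (Clopper-Pearson, 95%) and cover counting error only. The genes, lists and settings were chosen with earlier results of these data known. Named genes are the called members, the 5 members closest to a summit without a peak, other members beside them by role, and 12 other pathway genes by score; members outside these parts were named after their values were seen. The counting function was tested on simulated summits. Alternatives covered flanks, windows, summits, scores and gene assignment. Software was scipy 1.17.1, pandas 2.3.3, numpy 2.4.6 and matplotlib 3.10.9 under Python 3.11.15.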

Additional observations from a re-analysis of the deposited data

How the results depend on the processing

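With 10 kb flanks, 2 kb windows at gene ends and the highest-scoring summits, and without the Psap transcript-end peak (chosen after seeing the data), 10 genes had a peak. The count was 8 with no flank (without Wipi2 and Lamtor2), 8 within 2 kb of a listed start (without Rb1cc1 and Npc1, which have none listed) and 9 by the nearest gene end (without Lamtor2). In the top 50% of peaks it was 6, without Ulk2, Rb1cc1, Optn and Lamtor2, where 5.77% of all genes had a peak. By role, the top 50% of peaks gave 0 for the initiation kinase complex, 0 for receptors and 1 for mTOR anchoring, and 8 of 107 other pathway genes, since fewer peaks were used. No flank gave 1 for membrane supply and 1 for mTOR anchoring, and assignment to the nearest gene gave 1 for mTOR anchoring. Listed starts, for roles a setting chosen after seeing the data, gave 1 for the initiation kinase complex and 0 for lysosomal membrane genes. The conjugation and class III PI3K genes had 0 under every one of these settings. Apart from the 10 kb flank and the nearest gene end, these settings can only remove calls, so a 0 had to stay 0. The 10 kb flank could add none, because the closest of these genes, Becn1, lay 14.1 kb from a summit. No paired analysis was possible because there is 1 ChIP library and the labels number no replicates. The usable depth behind the 70 M reads given for each library, and so how many weaker peaks were missed, is unknown.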
